A study of Mus musculus with 9 samples.

Results

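The genes described here are 10 that sense or break down extracellular nucleotides and adenosine, in BV2 cells, an immortalized mouse microglial line, deprived of oxygen and glucose. They were taken by name from the deposited table of 54532 genes: the ATP-gated channels P2rx1, P2rx4 and P2rx7, the G-protein-coupled nucleotide receptors P2ry2 and P2ry6, the adenosine receptors Adora2a, Adora2b and Adora3, and the ectonucleotidases Entpd1 and Nt5e. Each of the 10 names matched 1 gene. Of the 10, 8 had a mean of at least 0.2 FPKM over the 9 libraries and were tested. FPKM are fragments per kilobase of gene, scaled by a divisor near the read total of the library. RNA was sequenced in 3 groups of 3 libraries. The control group (Ctrl) was kept in medium with 10% serum. The OGD group, for oxygen–glucose deprivation, was kept in low-glucose medium with 4% serum in a chamber with 4% oxygen. The third group (labelled OGD_A_485, OGD + A-485 in the plots and the A-485 group in the text) received OGD together with A-485, a small molecule that inhibits the histone acetyltransferase P300. Elsewhere the study used 24 h of OGD and 50 μM A-485. The labels give neither for the sequenced cells. All groups are the same line, no library had A-485 without OGD, and oxygen, glucose and serum changed together between control and OGD. Nothing in the labels says whether the replicates were separate cultures, so the p-values measure only the spread between these libraries, which may be technical.

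ATP that leaves stressed or damaged cells acts on 2 receptor families. The P2X receptors are channels that open when they bind ATP, and the P2Y receptors are coupled to G proteins and bind ATP, ADP, UTP or UDP. Outside the cell, CD39, the product of Entpd1, removes phosphates from ATP and ADP to leave AMP, and CD73, the product of Nt5e, turns AMP into adenosine, which binds the adenosine receptors. In microglia, these receptors are known for guiding processes towards damage, for phagocytosis and for the release of cytokines.

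The promoters of 4 of these genes are shown because their RNA differed over the 3 groups in course or in size of change. P2rx4 was higher with OGD and again with A-485, and Entpd1 was higher with OGD and lower with A-485. Adora2b and P2rx1 were both lower only in the A-485 group, where P2rx1 was nearly lost. Each is the 250 bases before the RefSeq start of the gene (GRCm38.p6), 5′ to 3′ on the gene's own strand, which is the plus strand for all 4. They lie at chr5:122707294-122707543 (P2rx4), chr19:40612116-40612365 (Entpd1), chr11:62248734-62248983 (Adora2b) and chr11:72998895-72999144 (P2rx1). Capitals mark the letters of the motifs searched, on both strands: ACGTG and GCGTG, the cores of the hypoxia response element, TGANTCA of AP-1, and TGACGTCA of the cAMP response element.
P2rx4: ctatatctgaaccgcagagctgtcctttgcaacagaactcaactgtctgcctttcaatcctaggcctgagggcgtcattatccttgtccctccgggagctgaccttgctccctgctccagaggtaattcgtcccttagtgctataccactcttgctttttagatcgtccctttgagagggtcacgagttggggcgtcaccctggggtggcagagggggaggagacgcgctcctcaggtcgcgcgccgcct
Entpd1: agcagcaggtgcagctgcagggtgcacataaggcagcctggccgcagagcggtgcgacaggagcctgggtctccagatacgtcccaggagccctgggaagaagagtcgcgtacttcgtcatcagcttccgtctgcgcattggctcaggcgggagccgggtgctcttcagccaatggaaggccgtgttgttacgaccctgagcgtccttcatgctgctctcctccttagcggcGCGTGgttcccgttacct
Adora2b: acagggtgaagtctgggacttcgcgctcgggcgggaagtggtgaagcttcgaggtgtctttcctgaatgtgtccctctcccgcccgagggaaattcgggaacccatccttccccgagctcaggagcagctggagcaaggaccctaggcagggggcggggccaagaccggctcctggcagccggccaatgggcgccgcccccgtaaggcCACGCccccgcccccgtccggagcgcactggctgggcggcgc
P2rx1: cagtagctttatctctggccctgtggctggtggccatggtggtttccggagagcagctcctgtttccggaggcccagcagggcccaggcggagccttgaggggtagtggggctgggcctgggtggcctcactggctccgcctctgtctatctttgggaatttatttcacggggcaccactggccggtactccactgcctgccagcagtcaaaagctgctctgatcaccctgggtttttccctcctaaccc
The Entpd1 and Adora2b windows each held 1 GCGTG, read as CACGC on the printed strand in Adora2b. The P2rx4 and P2rx1 windows held none of the 4 motifs. Of the 32851 promoter windows in the table, 38.6% held ACGTG or GCGTG, 6.75% held TGANTCA and 1.55% held TGACGTCA. Of the 10 genes, 8 had an entry, and P2ry6 and Adora2a had none. A GCGTG also lay in the windows of P2ry2 and Nt5e, an ACGTG at the second start of P2ry2, and a TGANTCA in the windows of P2rx7 and Adora3. The second start listed for Entpd1 had none of the 4. A match is a description of the letters and not a site of binding.

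The reads on genes, recovered from the FPKM, numbered between 12593250 and 16091038 per library, and 1 read on a gene of 1 kb was worth between 0.0618 and 0.0786 FPKM. Mitochondrial genes held 1.82 to 2.20% of the reads in control, 1.14 to 1.28% under OGD and 1.66 to 2.01% in the A-485 group, and the 10 highest genes held 5.38 to 5.46%, 6.16 to 6.37% and 5.79 to 5.96%. Both shares moved with the groups, and their part in the results was not tested. Of 14 microglia and macrophage markers, 13 had a mean of at least 1 FPKM, and C1qa was at 0 in all control and OGD libraries. The summed level of these markers was 633 to 650 FPKM in control, 822 to 845 under OGD and 1488 to 1530 in the A-485 group, so it moved with the groups, and its part in the results below was not tested. Of 7 genes that mark microglia in the resting brain, Tmem119 alone reached a mean of 1 FPKM, and Siglech was at 0 in every library. Over the 9 libraries, no marker of astrocytes, neurons, the oligodendrocyte lineage, endothelium, fibroblasts or lymphocytes reached a mean of 1 FPKM. The means of the 2 microglial lists are over the same 9 libraries. Mbp, of the oligodendrocyte lineage, came nearest, with 1.04 FPKM in control, 1.10 under OGD and 0.737 in the A-485 group.

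The comparison of OGD with control asked which of these genes respond to the deprivation. That of the A-485 group with OGD asked which of them respond to A-485 under it. A gene was called at the study's thresholds, p under 0.01 before adjustment and a log2 fold change beyond 0.5 in either direction, in a limma fit of log2(FPKM + 0.1) across all genes. The pseudocount makes changes of genes with low FPKM look smaller than they are. With OGD, P2rx4, P2ry6 and Entpd1 were called higher and Adora2a lower, while P2rx1, P2rx7, P2ry2 and Adora2b were not called. Of the 16123 genes in the fit, 11.2% passed as higher and 9.81% as lower in this comparison (21.0% in all). With A-485, P2rx4, P2ry2 and P2ry6 were called higher, and P2rx1, Adora2a, Adora2b and Entpd1 lower, against 12.2% and 13.4% of all genes tested (25.7% in all). P2rx7 was the tested gene without a call in that comparison. Between the A-485 group and control, P2rx4, P2ry2 and P2ry6 were called higher (17.0% of all genes) and P2rx1, Adora2a and Adora2b lower (16.6%, and 33.7% in all). Without a minimum change, 4, 8 and 8 of the 8 tested genes had an adjusted p-value under 0.05 in limma in the 3 comparisons, against 45.3%, 49.8% and 56.6% of all genes. With OGD, the libraries of 3 genes lay wholly above control and those of 1 wholly below (28.0% and 27.5% of all genes, 55.4% together). With A-485, 4 lay above OGD and 4 below (28.5% and 28.3%, 56.8% together), and against control 5 lay above and 3 below (31.8% and 32.0%, 63.8% together). The median log2 fold change of the 8 genes in the 3 comparisons was 0.03, -0.14 and 0.37, and that of all genes tested 0.01, 0.01 and 0.02. The first 2 comparisons use the same OGD libraries, so their fold changes are not independent. In bulk RNA, fewer cells of a kind and less RNA per cell cannot be told apart.

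**Figure D1:**
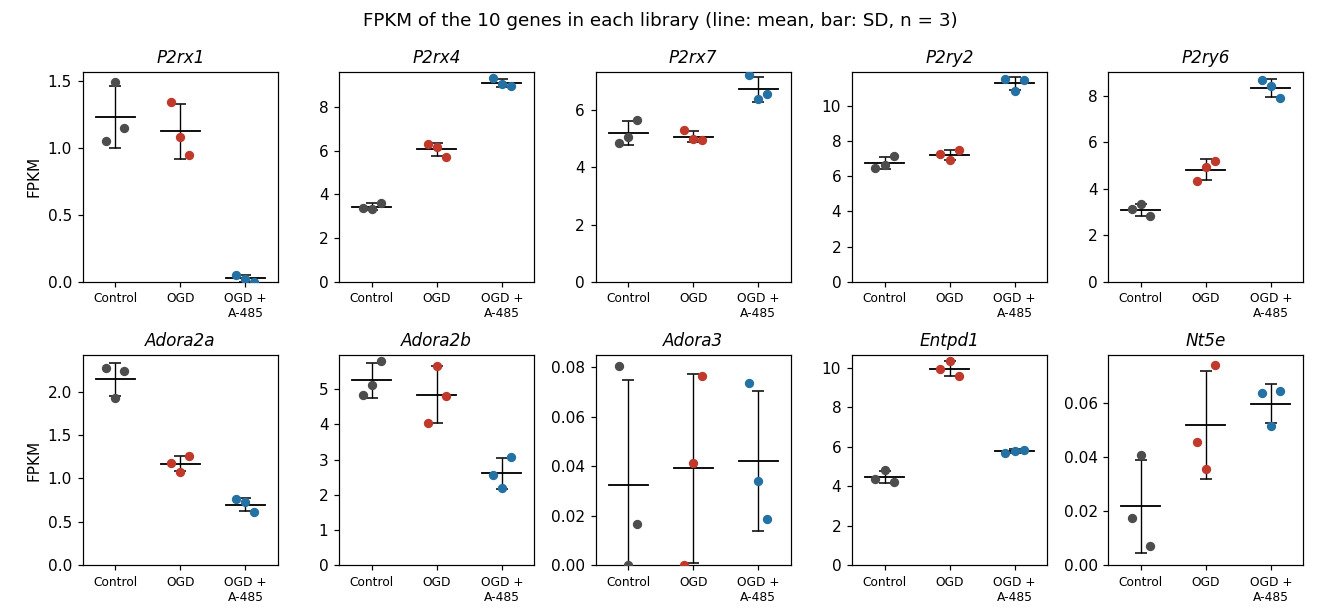
FPKM of the 10 genes (vertical axes, each starting at 0) in 3 libraries each of control, OGD and OGD + A-485; points are libraries, lines are means and bars are SD. P2rx4 and P2ry6 stood higher in each group than in the one before, Entpd1 peaked in OGD, and P2rx1 lay at or below 0.0521 FPKM in OGD + A-485.

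P2rx4 encodes a channel with high affinity for ATP that microglia carry at the surface and in lysosomes. The gene occupies 122707544 to 122729738 on the plus strand of chromosome 5 (GRCm38, as for all coordinates here). The control libraries had 3.36, 3.33 and 3.62 FPKM, the OGD libraries 6.28, 6.19 and 5.70, and the A-485 libraries 9.30, 9.05 and 8.97, from 315 to 1004 reads. The 3 groups did not overlap, and each stood above the one before. The mean rose 1.76-fold with OGD, from 3.44 ± 0.162 to 6.06 ± 0.315 FPKM (SD, n = 3), which is 0.80 on the log2 scale (standard error 0.06, Benjamini-Hochberg adjusted p = 1.25e-05 from limma). With A-485 it rose a further 1.50-fold, to 9.11 ± 0.173 FPKM, which is 0.58 on the log2 scale (standard error 0.06, adjusted p = 5.78e-05 from limma). Against control, the level in the A-485 group was 2.65-fold.

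P2rx7, a channel of low ATP affinity known for activating the NLRP3 inflammasome, lies close to P2rx4 on chromosome 5 (122643911 to 122691432, plus strand), with 16111 bases between them. It had 4.85, 5.04 and 5.67 FPKM in control, 5.29, 4.99 and 4.94 under OGD, and 7.21, 6.38 and 6.56 in the A-485 group. The control and OGD libraries overlapped, and every A-485 library stood above all of them. The difference with OGD was -0.03 on the log2 scale (95% interval -0.20 to 0.14, adjusted p = 0.793 from limma). The difference with A-485 was 0.40 (95% interval 0.22 to 0.57, adjusted p = 0.00223 from limma), below the minimum change for a call. The ratio of P2rx4 to P2rx7 was thus 0.663 ± 0.0266 in control, 1.19 ± 0.0437 under OGD and 1.36 ± 0.0640 in the A-485 group (SD, n = 3), with no overlap between the groups. An exact two-sided permutation test with 3 libraries on each side gave p = 0.1 for each of the 3 comparisons, the smallest it can give, and 0.129 after Benjamini-Hochberg adjustment over the 9 comparisons of such ratios.

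P2rx1, a fast-desensitizing channel best known from platelets and smooth muscle, lies on chromosome 11 from 72999103 to 73015200 on the plus strand. The control libraries had 1.06, 1.50 and 1.15 FPKM, the OGD libraries 1.35, 1.08 and 0.948, and the A-485 libraries 0.0521, 0.0241 and 0. In reads, these were 37, 56 and 49 in control, 45, 37 and 35 under OGD, and 2, 1 and 0 in the A-485 group. Control and OGD overlapped, and the A-485 libraries were at or near the level of a single read. The difference with OGD was -0.12 on the log2 scale, with a wide 95% interval of -0.71 to 0.46 (adjusted p = 0.739 from limma). Summed over the libraries of a group, 117 reads in OGD stood against 3 in the A-485 group, a ratio of 43.9 per unit of depth (95% exact interval 14.7 to 216, for counting error only). P2rx1 was called lower with A-485 (log2 fold change -3.30, adjusted p = 1.02e-05 from limma), and the size of that value depends on the pseudocount. It ran from -1.05 with a pseudocount of 1 to -5.34 with a pseudocount of 0.01. P2rx1 passed the filter on low values through the control and OGD libraries, where its level was higher.

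**Figure D2:**
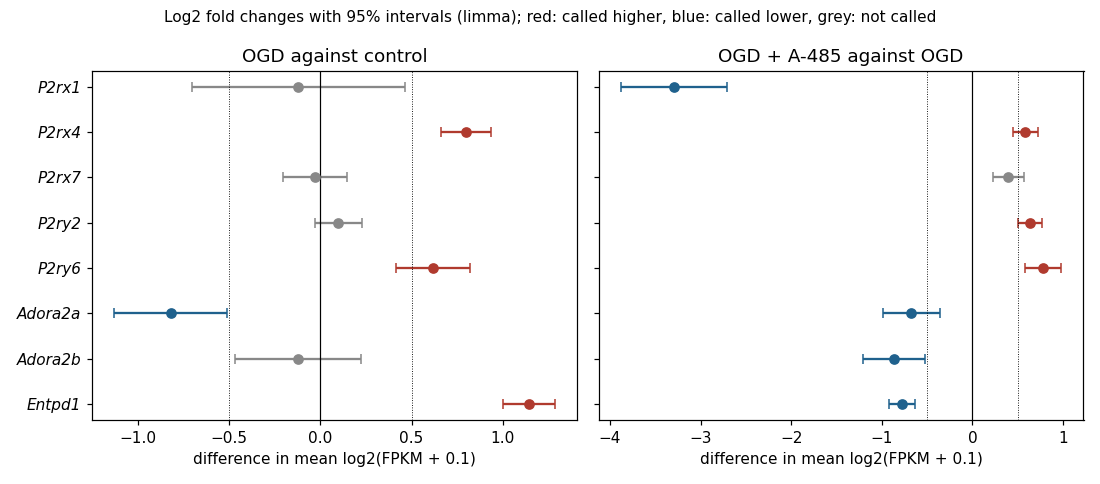
Log2 fold changes of the 8 tested genes for OGD against control (left) and OGD + A-485 against OGD (right), as differences in mean log2(FPKM + 0.1) with 95% intervals from limma; dotted lines mark 0.5 in either direction, red is called higher, blue called lower and grey not called. In the right panel, P2rx1 stands at -3.30, while the other 7 lie between -0.87 and 0.78.

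The 2 P2Y receptor genes also lie close together, on the minus strand of chromosome 7. P2ry6, a receptor for UDP that is known for driving phagocytosis in microglia, lies from 100937630 to 100974649, and P2ry2, a receptor for ATP and UTP, from 100996568 to 101012866, with 21918 bases between them. P2ry6 had 3.11, 3.35 and 2.84 FPKM in control, 4.33, 4.95 and 5.20 under OGD, and 8.68, 8.42 and 7.90 in the A-485 group. As for P2rx4, the groups did not overlap and stood in that order. With OGD, P2ry6 rose from 3.10 ± 0.255 to 4.82 ± 0.448 FPKM (SD, n = 3; log2 fold change 0.62, standard error 0.09, adjusted p = 0.000479 from limma). With A-485 it rose to 8.33 ± 0.394 FPKM (log2 fold change 0.78, standard error 0.09, adjusted p = 9.83e-05 from limma), 2.69-fold over control. Of all pairs among the 8 tested genes, P2rx4 and P2ry6 had the smallest difference in course, 0.165 as the root mean square over the 9 libraries of log2 values taken relative to control.

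P2ry2 had 6.46, 6.65 and 7.16 FPKM in control, 7.28, 6.92 and 7.49 under OGD, and 11.6, 10.8 and 11.5 in the A-485 group. Control and OGD overlapped, and every A-485 library was higher. The difference with OGD was 0.10 on the log2 scale (95% interval -0.03 to 0.23, adjusted p = 0.199 from limma). With A-485, P2ry2 rose 1.56-fold, from 7.23 ± 0.288 to 11.3 ± 0.383 FPKM (SD, n = 3; log2 fold change 0.64, standard error 0.06, adjusted p = 2.33e-05 from limma). The ratio of P2ry6 to P2ry2 went from 0.461 ± 0.0563 in control to 0.667 ± 0.0643 under OGD and 0.739 ± 0.0445 in the A-485 group (SD, n = 3). It separated OGD from control (two-sided exact permutation p = 0.1, adjusted 0.129), and it overlapped between the A-485 and OGD groups (exact permutation p = 0.3, adjusted 0.338).

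Adora2a was lower in both comparisons, and Adora2b with A-485 only. Adora2a, coupled to the G protein that raises cAMP and known for restraining inflammation, lies on chromosome 10 from 75316877 to 75334784 on the plus strand. It had 2.27, 1.93 and 2.24 FPKM in control, 1.18, 1.08 and 1.25 under OGD, and 0.760, 0.724 and 0.612 in the A-485 group, from 27 to 111 reads. Each group lay below the one before, with no overlap. The mean was 1.83-fold lower in OGD than in control (-0.82 on the log2 scale, standard error 0.14, adjusted p = 0.00114 from limma). It was a further 1.68-fold lower in the A-485 group (log2 fold change -0.67, standard error 0.14, adjusted p = 0.00302 from limma), and 3.07-fold below control. With a pseudocount of 1, the second difference was -0.35 and below the minimum change for a call.

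Adora2b, the low-affinity receptor of the same coupling and a known target of hypoxia-inducible factor in other cells, lies on chromosome 11 from 62248984 to 62266453 on the plus strand. It had 4.83, 5.14 and 5.79 FPKM in control, 4.04, 5.66 and 4.82 under OGD, and 2.56, 2.20 and 3.08 in the A-485 group. The control and OGD libraries overlapped, and every A-485 library was lower than all of them. With OGD, the log2 difference was -0.12 (95% interval -0.47 to 0.22, adjusted p = 0.548 from limma), so a rise above 0.22 lay outside the interval. With A-485, Adora2b fell from 4.84 ± 0.809 to 2.61 ± 0.446 FPKM (SD, n = 3; log2 fold change -0.87, standard error 0.15, adjusted p = 0.00132 from limma). The ratio of Adora2b to Adora2a was 2.46 ± 0.293 in control, 4.17 ± 0.955 under OGD and 3.81 ± 1.07 in the A-485 group (SD, n = 3). It separated OGD from control (two-sided exact permutation p = 0.1, adjusted 0.129) and overlapped between OGD and the A-485 group (exact permutation p = 0.5).

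Adora3, coupled to the inhibitory G protein, rested on 0 to 4 reads per library (chromosome 3, 105870858 to 105908926, plus strand). Its highest level was 0.0803 FPKM, in a control library, and the 3 groups overlapped. It shares 779 of its 3729 exonic bases with Tmigd3 on the same strand, and reads there may not have been counted for either gene. A difference was not detectable at this depth.

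Entpd1 encodes CD39, the main enzyme of microglia that takes ATP and ADP to AMP, and lies on chromosome 19 from 40612366 to 40741602 on the plus strand. The control libraries had 4.35, 4.82 and 4.21 FPKM, the OGD libraries 9.94, 10.3 and 9.58, and the A-485 libraries 5.67, 5.80 and 5.84. The OGD libraries stood above both other groups, and the A-485 libraries lay between control and OGD without overlap. Entpd1 rose 2.23-fold with OGD, from 4.46 ± 0.320 to 9.95 ± 0.372 FPKM (SD, n = 3; log2 fold change 1.14, standard error 0.06, adjusted p = 2.65e-06 from limma). It fell with A-485 to 5.77 ± 0.0912 FPKM (log2 fold change -0.78, standard error 0.06, adjusted p = 1.26e-05 from limma). Against control, the level in the A-485 group differed by 0.37 on the log2 scale (95% interval 0.22 to 0.51, adjusted p = 0.000884 from limma), below the minimum change for a call. In a further fit, the median of the 50 genes of at least 1 FPKM that flank Entpd1, as many on each side, was removed in each library. The difference with A-485 was then -0.43 and no longer called, and that against control was 0.84 and called. Entpd1 was the gene of highest level among the 10 under OGD and had rank 4 in control and rank 5 in the A-485 group.

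Nt5e, the gene of CD73, was near the limit of detection (chromosome 9, 88327197 to 88372092, plus strand). It had 2, 5 and 1 reads in control, 5, 4 and 9 under OGD, and 8, 7 and 8 in the A-485 group, and no library was above 0.0744 FPKM. Every A-485 library lay above every control library, while OGD overlapped both. Summed over libraries, 18 reads in OGD stood against 8 in control, a ratio of 2.48 (95% exact interval 1.02 to 6.58), and 23 in the A-485 group gave a ratio to control of 2.81 (95% exact interval 1.21 to 7.26), both for counting error only. In a fit without the filter on low values, Nt5e was not called in any of the 3 comparisons (lowest adjusted p = 0.114 from limma). Its mean was 0.0218 FPKM in control, 0.0519 with OGD and 0.0599 in the A-485 group, where Entpd1 had 4.46, 9.95 and 5.77.

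**Figure D3:**
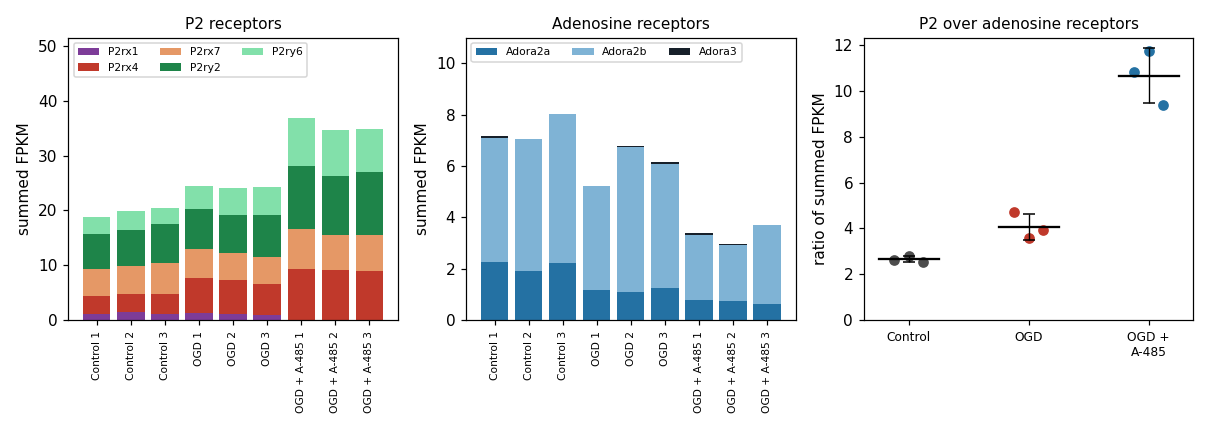
Summed FPKM of the 5 P2 receptor genes (left) and the 3 adenosine receptor genes (middle) in each of the 9 libraries, with the parts stacked from 0, and the ratio of both sums by group (right, points are libraries, lines means, bars SD, n = 3). The P2 sum was 18.8 to 20.4 FPKM in control and 34.7 to 36.8 in OGD + A-485, and the adenosine receptor sum 7.06 to 8.05 and 2.95 to 3.71.

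FPKM are scaled to gene length, so the levels of the receptors can be set side by side, though only roughly. For P2rx7, P2ry6, Adora3 and Entpd1 this length was that of all annotated exonic bases, whether or not the cells used them. The ratios, sums, shares and ranks across genes given here carry that limit. The 5 P2 receptor genes summed to 19.7 ± 0.814 FPKM in control, 24.3 ± 0.199 under OGD and 35.5 ± 1.15 in the A-485 group (SD, n = 3). The 3 adenosine receptor genes summed to 7.43 ± 0.537, 6.05 ± 0.783 and 3.35 ± 0.381 FPKM. The ratio of the P2 sum to the adenosine receptor sum was 2.66 ± 0.140 in control, 4.07 ± 0.577 under OGD and 10.7 ± 1.19 in the A-485 group, and its libraries did not overlap between groups. These sums are a description and were not tested. The P2 sum leaves out P2rx3 and P2ry1, P2 receptor genes outside the set of 10 that also passed the filter. P2rx3 had means of 0.136, 0.309 and 2.07 FPKM in control, OGD and the A-485 group, and P2ry1 0.554, 0.495 and 1.53.

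Within the P2 sum, P2ry2 held the largest share in each group, 34.3% ± 0.772 in control, 29.7% ± 1.09 under OGD and 31.8% ± 0.879 in the A-485 group (SD, n = 3). P2rx7 went from 26.3% ± 1.26 to 20.9% ± 0.626 and 18.9% ± 0.615. P2rx4 went from 17.4% ± 0.594 to 24.9% ± 1.25 and 25.7% ± 0.386, and P2ry6 from 15.8% ± 1.62 to 19.8% ± 1.97 and 23.5% ± 0.806. On this scale, P2rx4 and P2rx7 exchanged places between control and OGD. P2rx1 held 6.26% ± 1.11 in control and 0.0704% ± 0.0709 in the A-485 group. In the order of mean levels over all 10 genes, neighbours whose libraries overlapped in control were Adora2b and P2rx7, P2rx4 and P2ry6, and Adora3 and Nt5e. In OGD, P2rx7, Adora2b and P2ry6 overlapped in turn, as did Adora2a with P2rx1 and Nt5e with Adora3. In the A-485 group, only the last 3, Nt5e, Adora3 and P2rx1, overlapped.

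Since P2rx4 and P2rx7, and P2ry2 and P2ry6, lie close together, genes of at least 1 FPKM on average were looked at around each gene. They were the 50 that flank it in order of position, as many on each side. With A-485, the median log2 fold change of these neighbours was 0.16 around P2rx4, 0.23 around P2rx7, and 0.02 around both P2ry6 and P2ry2. Around Entpd1 it was -0.31, and 11 of the 50 neighbours were higher in the A-485 group than in OGD. With the median of the neighbours removed in each library, the difference with A-485 was 0.47 for P2rx4, in the same direction and below the minimum change for a call, as for Entpd1 above. The calls with OGD were the same in that fit for all 8 genes.

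**Figure D4:**
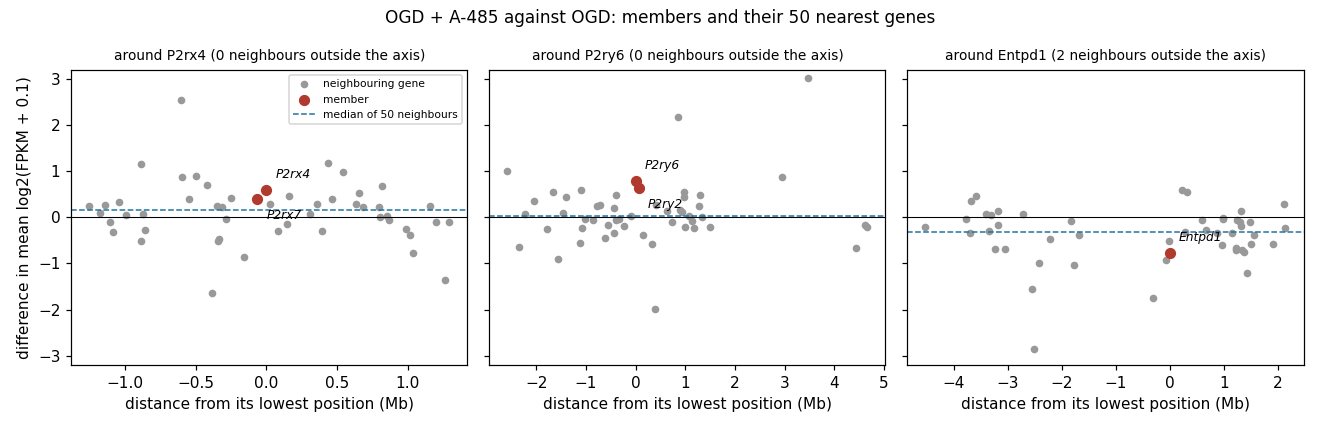
Differences in mean log2(FPKM + 0.1) between OGD + A-485 and OGD for P2rx4 (left), P2ry6 (middle), Entpd1 (right) and the 50 genes that flank each, as many on each side, against the distance in Mb from the gene. Red points are genes of the set of 10, grey points the neighbours, and dashed lines the median of the neighbours. The dashed line lies at 0.16, 0.02 and -0.31, and in the right panel 2 neighbours lie outside the axis.

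For 6 of the genes of at least 1 FPKM on average, the genes with the most similar course were found among 10010 others, by the root mean square difference over the 9 libraries of log2(FPKM + 0.1) relative to the control mean. They were Fyb (0.0812) and Pmp22 (0.0842) for P2rx4, and Kidins220 (0.0471) and Lima1 (0.0487) for P2ry2. For P2rx7 they were Slc25a38 (0.0523) and Sestd1 (0.0635). For Entpd1, they were Man1a (0.0525), a mannosidase of the Golgi with 6.82, 14.8 and 8.77 FPKM in the 3 groups, and Serpinf1 (0.0925). For Adora2a, they were Plk1 (0.0562), a kinase of mitosis with 54.9, 31.3 and 19.1 FPKM, and Topbp1 (0.0759), a scaffold of DNA replication and repair with 30.3, 17.8 and 10.8 FPKM. For Adora2b, whose libraries spread more, the nearest were Pank4 (0.128) and Pcgf6 (0.131). The measure describes these 9 libraries.

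The other genes of nucleotide and adenosine release, uptake, breakdown and sensing were put in a list of 52, of which 28 were tested. With OGD, 1 of the 28 was called higher (3.57%, against 11.2% of all genes) and 7 lower (25%, against 9.81%), with a median log2 fold change of -0.27, against 0.01 over all genes tested. The 7 were Slc29a1, Slc29a2, Slc29a3, Ak3, Panx1, Pnp and Nt5c, and without control replicate 1 the list's calls numbered 5 in place of 8. The calls of Panx1 (-0.47), Pnp (-0.48) and Slc28a2 were those lost without it, and that of Nt5c was lost without OGD replicate 2 (-0.43). With A-485, 8 were called higher (Slc28a2, P2rx3, Cd38, Bst1, P2ry1, Panx1, Pnp and Ampd2) and 4 lower (Alpl, Ada, Ahcy and Ak1), with a median of 0.35 against 0.01 over all genes. These are 28.6% and 14.3% of the 28, against 12.2% and 13.4% of all genes, so the share called lower was near that of all genes. Between the A-485 group and control, 5 were called higher and 5 lower. These are 17.9% each, near the 17.0% and 16.6% of all genes. The median there was -0.01, against 0.02 over all genes tested. Slc28a2, the 1 called higher with OGD and among the 8 with A-485, passed the filter only through the A-485 libraries. A gene kept in this way had to differ with A-485, so the share called higher was in part fixed in advance. With the median of the 50 flanking genes removed in each library, the calls of Pnp (0.17) and Ampd2 (0.45) with A-485 were lost. So were those of Pnp (-0.44) and Nt5c (-0.47) with OGD. The list's calls in that fit numbered 8 with OGD and 13 with A-485. Of the 24 not tested, 8 had no read in any library, among them Adora1, Entpd2, Entpd8 and Enpp1.

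**Figure D5:**
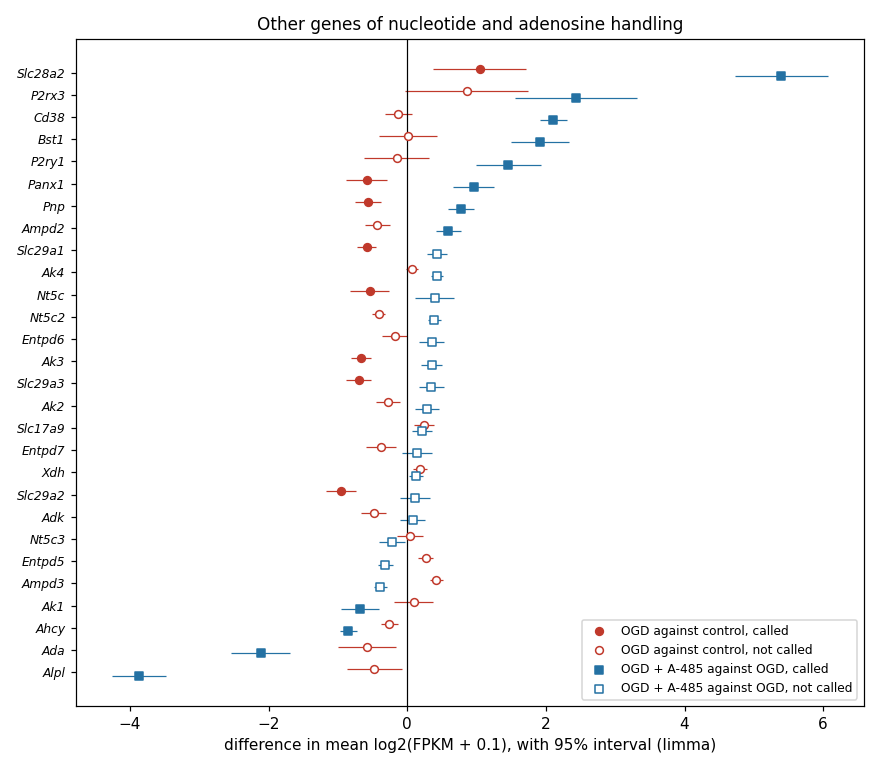
Log2 fold changes of the 28 tested genes of the wider list, as differences in mean log2(FPKM + 0.1) with 95% intervals from limma; red circles are OGD against control, blue squares OGD + A-485 against OGD, and filled symbols are called. Slc28a2 (5.39) and Alpl (-3.87) mark the ends of the second comparison. Each had few reads in 1 of the groups compared, so the size of both values depends on the pseudocount.

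All 3 equilibrative nucleoside transporters of the list, Slc29a1, Slc29a2 and Slc29a3, were called lower with OGD. Slc29a2 had 9.48, 8.60 and 9.09 FPKM in control, 4.10, 4.72 and 5.09 under OGD, and 5.51, 5.02 and 4.57 in the A-485 group. It fell by 0.96 on the log2 scale with OGD (adjusted p = 5.91e-05 from limma) and did not separate the A-485 group from OGD (0.12, adjusted p = 0.347 from limma). Slc29a3, the lysosomal member, fell by 0.70 (adjusted p = 0.000113 from limma), and Slc29a1 by 0.58 (adjusted p = 8.04e-05 from limma). Ak3, an adenylate kinase of mitochondria, fell by 0.67 (adjusted p = 5.64e-05 from limma). With A-485, Slc29a1, Slc29a3 and Ak3 were higher by 0.43, 0.35 and 0.35 (adjusted p = 0.000406, 0.00534 and 0.00198 from limma). These differences from OGD were below the minimum change for a call.

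The concentrative transporter Slc28a2, which takes up purine nucleosides with sodium, had few reads without A-485. It passed the filter on low values only through the A-485 libraries, as its mean over the other 6 was 0.152 FPKM, and a gene kept in this way had to differ. It had 0.0356, 0.0334 and 0.117 FPKM in control, 0.205, 0.383 and 0.135 under OGD, and 13.9, 13.8 and 13.2 in the A-485 group. In summed reads these were 12, 40 and 2570, a ratio of 57.1 between the A-485 and OGD groups (95% exact interval 41.8 to 80.1, for counting error only). Its difference between OGD and control (1.05 on the log2 scale, adjusted p = 0.0181 from limma) rested on those few reads. With each of the 9 libraries left out in turn it lay between 0.76 and 1.28 and was called in 2 of the 9 fits, those without control replicate 3 or OGD replicate 3, and it was not called with the replicate number as a block.

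Among enzymes that make or remove adenosine, Alpl, Ada and Ahcy were called lower with A-485. They were named as the 3 largest falls of the list, so they do not stand for all such enzymes. Acpp, a phosphatase that was not tested, stood higher in the A-485 group and is described at the end. Alpl, a phosphatase that can also release adenosine from AMP, had 3.86, 4.49 and 4.01 FPKM in control, 2.79, 3.01 and 3.01 under OGD, and 0.170, 0.0785 and 0.0860 in the A-485 group (log2 fold change with A-485 -3.87, adjusted p = 4.54e-07 from limma). The A-485 libraries held 10, 5 and 5 reads of Alpl, so the size of that fold change depends on the pseudocount. Ada, adenosine deaminase, had 6.84, 5.22 and 5.49 FPKM in control, 4.16, 3.30 and 4.15 under OGD, and 1.09, 0.664 and 0.728 in the A-485 group. With A-485 it fell by 2.12 on the log2 scale (adjusted p = 2.12e-05 from limma). Ahcy, which splits S-adenosylhomocysteine into adenosine and homocysteine, fell by 0.85 (adjusted p = 3.49e-06 from limma). Adk, the kinase that returns adenosine to AMP, was not called, with 5.93 ± 0.281 FPKM in OGD and 6.28 ± 0.593 in the A-485 group (SD, n = 3).

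Cd38 and Bst1, ectoenzymes that consume NAD, were called higher with A-485. Cd38 had 4.89, 4.22 and 4.35 FPKM in control, 4.54, 3.93 and 3.82 under OGD, and 16.7, 19.0 and 18.2 in the A-485 group (log2 fold change with A-485 2.11, adjusted p = 3e-07 from limma). Bst1 rose by 1.91 on the log2 scale (adjusted p = 3.64e-05 from limma). Panx1, which forms a channel for ATP release, had 2.41 ± 0.397 FPKM in control, 1.56 ± 0.124 under OGD and 3.13 ± 0.237 in the A-485 group (SD, n = 3). It was called lower with OGD (-0.59, adjusted p = 0.00584 from limma), a call lost without control replicate 1, and higher with A-485 (0.96, adjusted p = 0.000308 from limma).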

How the data were processed

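Each of the 9 BV2 libraries was put in its group by its label. The authors dropped low-quality reads and those holding adapter or N, counted the rest on genes with featureCounts and deposited FPKM per library for 54532 genes with gene lengths and coordinates. The submitters' processing notes name GRCm38 (mm10), and the aligner is not given in the sources used here. All 10 genes had the coordinates of GENCODE M21.

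FPKM times gene length and a divisor per library returned whole reads (within 0.01) in 100% of nonzero values. This divisor was 1.04 to 1.05 times the library total in control, 1.00 to 1.01 under OGD and 0.953 to 0.982 in the A-485 group. It thus moved with the groups. Genes averaging 0.2 FPKM or more (16123) entered limma 3.58.1 (R 4.3.3) as log2(FPKM + 0.1), with 1 mean for each group and the prior variance trended. P-values were adjusted over all genes tested by Benjamini-Hochberg. The fit was tested on simulated data. Python 3.11.15 with scipy 1.17.1 was used for exact tests and intervals.

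The 10 genes and the lists were chosen with earlier results of these data known. Those named from the list of 52 genes are, in each comparison, the 3 with the largest rise and fall among called genes averaging 1 FPKM or more, and a fixed set of receptors, enzymes and transporters; the remaining called genes are only listed. Alternatives were other pseudocounts, filters, scalings, fits and thresholds, limma-voom on the recovered reads, subtraction of the neighbouring genes' median, and each library left out. Libraries of the same number did not deviate together (mean correlation -0.030 over 9 pairs, against 0.015 over 18 pairs of unlike numbers). The genes most like P2ry6 in course are not reported here.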

Additional observations from a re-analysis of the deposited data

How the results depend on the processing

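Of 477 values of the 8 tested genes under the alternatives, 471 kept their direction and their side of the thresholds. The exceptions were the differences with A-485 of P2rx4 (0.47) and Entpd1 (-0.43) and the level of Entpd1 against control (0.84) with the median of neighbouring genes removed, that of Adora2a with a pseudocount of 1 (-0.35), and 2 uncalled differences with OGD that changed sign, P2rx1 without control replicate 2 (0.014, range over the left-out libraries -0.25 to 0.014) and P2rx7 without control replicate 3 (0.035, range -0.075 to 0.035). Their cause was not tested. Part of the 477 values could hardly change. A fold change stays the same without a library of the group not compared, with only the 2 groups compared, or with the replicate block. Rescaling by median-of-ratios size factors did not move the median of all genes. The 471 are therefore not that many separate checks. Of the set of 10 genes, 4 were called with OGD under every alternative run, and between 5 and 8 with A-485 against OGD. At the main thresholds, 2685 to 3604 of all genes were called with OGD under the alternatives, and 3396 to 4645 with A-485 against OGD. Between the A-485 group and control, 4546 to 5946 were called. The main fit called 3384, 4139 and 5431 of all genes, and the number tested changed with the filter. P2rx1 left the test with a filter of 1 FPKM. With the replicate number as a block, the same numbers were called among the 10 genes (4, 7 and 6 in the 3 comparisons), and in the list of 52 genes 8, 12 and 10, the 8 being 0 higher and 8 lower in place of 1 and 7. The list's 8 calls with OGD became 5 with a pseudocount of 1 and lay between 5 and 8 with each library left out, the lowest without control replicate 1. At an adjusted p-value under 0.05 with no minimum change, 19, 25 and 17 of the list's 28 tested genes were called (67.9%, 89.3% and 60.7%, against 45.3%, 49.8% and 56.6% of all genes). Rescaling to library totals moved the median of all genes by -0.10 between OGD + A-485 and control. Adora3 and Nt5e are limited by depth.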

Other observations

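Of the 7 genes that mark microglia in the resting brain, P2ry12, P2ry13 and Gpr34 had their highest mean FPKM in the A-485 group, while Tmem119, Sall1 and Olfml3 had theirs in control and Siglech was at 0. Tmem119 had means of 1.40, 1.34 and 1.33 FPKM in control, OGD and OGD + A-485. P2ry12, the ADP receptor that steers microglial processes, had 0, 5 and 2 reads in control, 1, 0 and 0 in OGD, and 9, 12 and 7 in OGD + A-485. P2ry13, a related ADP receptor, had 3, 0 and 0 reads in control, 1, 0 and 2 in OGD, and 11, 25 and 17 in OGD + A-485. In both genes every OGD + A-485 library lay above every control and OGD library, at levels of at most 0.298 and 0.626 FPKM. Acpp, a phosphatase that can release adenosine from AMP outside the cell, was chosen after its values were seen. It lay at or below 0.03 FPKM in control and OGD and between 0.36 and 0.42 FPKM in OGD + A-485. P2ry12, P2ry13 and Acpp had means under 0.2 FPKM and were not tested.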
